A study of Homo sapiens with 4 samples.

Results

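The 4 libraries of this study carry a number, 1 or 2, in their titles, and the comparison described here sets the 2 libraries numbered 2 against the 2 numbered 1. It uses all 4 libraries of the series, 1 of each number for each oil, and describes the difference that both oils share. All 4 came from A375, a long-established line of human melanoma cells with an activated BRAF kinase. The cells were exposed for 6 h to 0.01% olive oil or to 0.01% ozonated olive oil, an oil whose unsaturated fatty acids carry ozonides and peroxides, and no library of untreated cells is used here. The labels do not say what separates the numbers, or whether they mark cultures, passages, days or preparations, and no cause of the difference was tested. Every p-value and SE rests on how far the oil pairs disagree, with spread borrowed across genes. Neither measures the spread between replicate cultures of a number. Each value refers to a single line in culture.

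Several programmes vary in cultured melanoma cells without any change of genotype. NF-kB is a transcription factor that drives cytokine and survival genes, p53 drives genes of cell cycle arrest and death, HIF drives glycolysis and pH control when oxygen is low, and ATF4 drives amino acid synthesis and transport when translation is stressed. Melanoma cells also range from a pigmented state, led by MITF and SOX10, to a dedifferentiated state with high AXL, EGFR and inflammatory genes.

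The libraries held 27772480 counts (olive oil 1), 26609495 (olive oil 2), 23571726 (ozonated olive oil 1) and 22245807 (ozonated olive oil 2). Mitochondrial genes took 1.99% to 2.35% of the counts. The lineage factor SOX10 was at 278 to 361 CPM (the count of a gene scaled to a common library size) in the 4 libraries, and CSPG4 and MCAM, surface proteins of melanoma, at 275 to 424 and 251 to 350 CPM. The pigment gene TYR had 0 counts in every library, and PMEL, MLANA, TYRP1 and DCT stayed at or below 1.35 CPM, so the pigmented state was not seen in either number. Of 11 melanocytic markers 10 were tested, of which 4 were higher and 1 lower in number 2. KRT5, KRT1 and TP63 of keratinocytes, PTPRC and CD3E of immune cells, COL3A1 of fibroblasts, CDH5 of endothelium and CDH1 of other epithelia were at or below 0.779 CPM in all libraries. Other markers of these sets were not: the endothelial receptor KDR was at 12 and 10.4 CPM in number 1 and 3.82 and 2.17 CPM in number 2 (log2 difference -1.92, adjusted p = 7.66e-06), and the sum of the 6 endothelial markers was 14.6 and 14.2 CPM against 7.01 and 5.55 CPM. The summed level of the 8 keratinocyte markers was 128 and 129 CPM in the libraries numbered 1 and 103 and 100 CPM in those numbered 2, carried mainly by KRT10. In bulk RNA, fewer cells of a kind and less RNA per cell cannot be told apart.

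The numbers differed widely. Of 28395 rows 14841 passed the filter on low counts. In edgeR's quasi-likelihood test with the oil as a second term and Benjamini-Hochberg adjustment at 0.05, 1654 genes were higher in number 2 (11.1%) and 1975 lower (13.3%). Of the 3629 called genes 1631 differed by less than 0.5 on the log2 scale, while 333 rose and 648 fell by more than 1. The median over all tested genes was 0.0049, so the changes below are relative to a centre near 0. For 3627 of the 3629 called genes the olive oil pair and the ozonated olive oil pair had the same sign. The exceptions, looked up after their values were seen, were JUN and RHOB. Within a gene, the spread that the fit uses is the disagreement of its oil pairs, so this agreement is largely set by the call. Over genes the SD of the log2 difference was 0.665 in the olive oil pair and 0.689 in the ozonated pair, against 0.411 between the oils in number 1 and 0.472 in number 2. Across the 14841 genes, which are not independent replicates, the differences of both pairs had a Pearson r of 0.672 and a Spearman rho of 0.605. When a library is left out the oil term can no longer be kept, and the counts were 44 higher and 125 lower without olive oil 1, 309 and 393 without olive oil 2, 79 and 187 without ozonated olive oil 1, and 194 and 365 without ozonated olive oil 2.

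**Figure D1:**
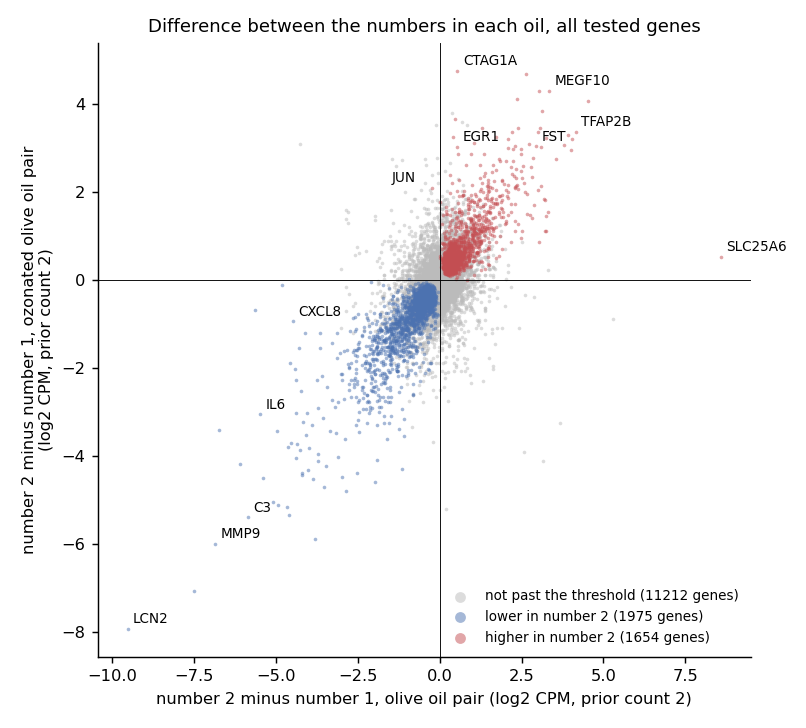
Each point is a tested gene, placed by its difference between number 2 and number 1 in the olive oil pair (x axis, log2 CPM) and in the ozonated olive oil pair (y axis, log2 CPM). The 1654 genes called higher (red) and the 1975 called lower (blue) lie in the upper right and lower left, and JUN is a called gene whose signs differ; SLC25A6 and CTAG1A are high in 1 library each.

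Among the largest falls in number 2, LCN2 (chromosome 9, 128149453 to 128153453), whose product lipocalin-2 binds bacterial siderophores, was at 169 and 165 CPM in olive oil 1 and ozonated olive oil 1 and at 0.148 and 0.601 CPM in the libraries numbered 2 (4 and 13 counts). Its log2 difference was -8.87 ± 0.20 (SE, 2 libraries against 2), a 469-fold lower level with an adjusted p of 2.71e-14. The complement component C3 (chromosome 19, 6677704 to 6720650) was at 425 and 435 CPM in number 1 and 7.20 and 10.3 CPM in number 2, a log2 difference of -5.64 ± 0.11 (adjusted p = 8.13e-15). The numbers did not overlap for either gene. Here and below, such separation is largely set by picking genes with large or low-p differences. The share of all tested genes that separate in this way was not counted. The oils lay close together within number 1, while in number 2 ozonated olive oil 2 held the higher level of both.

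FDCSP, a small secreted protein, was at 41.5 and 35.1 CPM in number 1 and at 0.148 and 0.185 CPM, 4 counts in each library, in number 2. MMP9, a gelatinase, was at 44.0 and 43.0 CPM in number 1 and at 0.297 and 0.601 CPM in number 2. The plasminogen activator inhibitor SERPINB2 was at 33.1 and 16.3 CPM against 0.705 and 0.648 CPM, and the lysosomal protease CTSS at 39.0 and 37.4 CPM against 1.08 and 1.06 CPM. KRT6B, a keratin of stressed epithelium, was at 52.8 and 40.7 CPM against 1.63 and 1.11 CPM. The log2 differences of these 5 genes were -7.83, -6.63, -5.18, -5.15 and -5.08, in the order given. C15orf48, SULT1B1, the receptor kinase ROS1, the actin-bundling LCP1, the neural adhesion molecule CNTN1 and the cytokines IL6 and IL1B had fitted log2 differences from -5.11 to -4.11. Genes of immune cells are among these falls, and the summed level of the 8 immune markers was 771 and 850.5 CPM in the libraries numbered 1 and 691 and 778 CPM in those numbered 2. CD74 and CD68 carried it, and CD68 was itself lower, at 66.6 and 81.6 CPM in number 1 and 28.4 and 41.7 CPM in number 2 (-1.10, adjusted p = 4.99e-07), with PTPRC at 0 to 0.170 CPM and CD3E at 0. Of the keratinocyte markers KRT14, DSC3 and SFN were lower in number 2, while TP63 had 0 counts. The part of immune, keratinocyte or endothelial cells in these falls was not tested. The cell adhesion molecule NCAM1 was at 34.1 and 35.3 CPM in number 1 and 1.71 and 2.36 CPM in number 2, a log2 difference of -4.11 ± 0.17 (adjusted p = 8.08e-11).

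Among the largest rises, TFAP2B (chromosome 6, 50818355 to 50847619), a transcription factor of neural crest cells, was at 2.05 and 2.72 CPM in number 1 and at 37.9 and 28.8 CPM in number 2, a log2 difference of 3.81 ± 0.19 (adjusted p = 4.78e-10). FST, follistatin, which binds activin, was at 32.2 and 31.0 CPM in number 1 and 248 and 254 CPM in number 2, a 7.94-fold rise with a log2 difference of 2.99 ± 0.087 (adjusted p = 8.43e-13). Within each number the oils differed little for FST, and no library of number 1 came near those of number 2.

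MEGF10, an engulfment receptor, was at 0.921 and 0.468 CPM in number 1 and at 10.1 and 10.6 CPM in number 2. RXRG, a nuclear receptor partner found in neural crest derivatives, was at 0.638 and 0.979 CPM against 8.27 and 7.03 CPM. HAPLN1, a link protein of hyaluronan matrix, was at 15.7 and 9.79 CPM against 88.5 and 77.3 CPM, and IGFBP2, which binds insulin-like growth factors, at 17.96 and 21.5 CPM against 127 and 109 CPM. These 4 rose by 3.88, 3.26, 2.72 and 2.58 on the log2 scale. TESC, NRCAM, SCARA5, FXYD3, AFAP1L2 and the calcium-dependent transcription factor NFATC2 rose by 2.35 to 3.71. For every gene of this paragraph both libraries numbered 2 were above both numbered 1. The rule that picked them asks for the largest rises with the same sign in both pairs, so this separation is largely set by the choice.

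**Figure D2:**
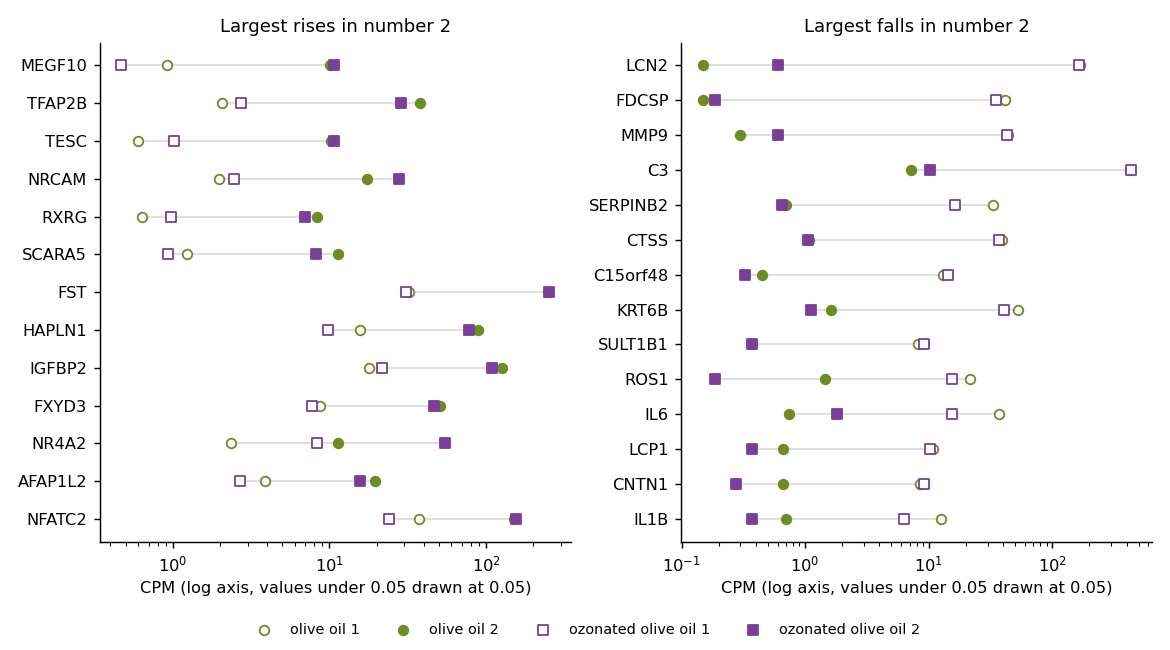
Level of the genes with the largest rises (left) and falls (right) in each library, without those that rest on a single library, in CPM on a log axis. Open symbols are libraries numbered 1, filled symbols libraries numbered 2; circles are olive oil and squares ozonated olive oil. For LCN2, C3 and FST the open and the filled symbols form separate pairs, whereas for NR4A2 the ozonated library numbered 1 lies close to the olive oil library numbered 2.

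A few called genes rested on a single library and are given without a fold change. SLC25A6, in the region shared by the X and Y chromosomes, had 6, 3030, 13 and 18 counts in olive oil 1, olive oil 2, ozonated olive oil 1 and ozonated olive oil 2. CTAG1A, which has a near-identical copy on the X chromosome, had 13, 19, 21 and 564 counts, and TFPT on chromosome 19 had 466, 2, 18 and 0. In 3 stretches of the genome counts were few in all libraries. Of the coding genes of the MHC on chromosome 6, 149 of 149 had under 100 counts in every library. So did 12 of 14 at the start of X and 30 of 33 around the LILR receptor genes of chromosome 19. The share over all coding genes was 42.4%. Genes of these stretches cannot be read. Without the 3 stretches, an alternative added after seeing the data, 1661 genes were higher and 1987 lower.

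Gene lists were then read against the background of 11.1% higher and 13.3% lower among all tested genes. They come from textbook knowledge but were chosen with earlier results of these data known. Counts above the background are therefore a description and not independent support. Of 46 lists, the 14 with the largest absolute median were described first. In the NF-kB list 22 of 29 tested members were lower in number 2 and 0 higher (median log2 difference -0.82). Where 0 members of a list are given in a direction here and below, DESeq2 gave 0 there too, and the unadjusted p was under 0.05 in that direction for 1 p53 target, 2 adhesion genes, 1 glycolytic enzyme and 0 members of the other lists named. Among the 13 factors and feedback genes 9 fell, and among the 16 cytokines and receptors 13 fell, with medians of -0.55 and -1.76. In fits of 3 libraries without the oil term, 6 to 12 were lower.

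CXCL8, a neutrophil chemokine, was at 269 and 100.4 CPM in olive oil 1 and ozonated olive oil 1, and at 12.02 and 52.5 CPM in the libraries numbered 2. Its fitted difference was -2.60 ± 0.49 (adjusted p = 0.00105), made of -4.47 in the olive oil pair and -0.94 in the ozonated pair. IL6 was at 36.9 and 15.5 CPM in number 1 and 0.742 and 1.804 CPM in number 2. IL1B was at 12.5 and 6.30 CPM against 0.705 and 0.370 CPM, and IL1A at 28.9 and 18.4 CPM against 2.08 and 3.75 CPM. In all 4 cytokines the 2 numbers did not overlap, and olive oil 1 held the highest level. The adhesion receptor ICAM1 was at 119 and 110 CPM against 29.5 and 42.9 CPM, a log2 difference of -1.69 ± 0.12 (adjusted p = 3.73e-08). Among the factors, NFKB2 was at 158 and 158 CPM against 81.5 and 117 CPM (-0.69 ± 0.10, adjusted p = 1.33e-04), while RELA, the main activating subunit, was at 98.97 and 105 CPM against 89.8 and 96.6 CPM and did not pass (adjusted p = 0.287).

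BIRC3, an inhibitor of apoptosis and a target of NF-kB, was at 76.9 and 42.0 CPM in number 1 and at 6.27 and 9.21 CPM in number 2, a 7.52-fold lower level (log2 difference -2.91 ± 0.22, adjusted p = 5.72e-08). Its promoter window from RefSeq on GRCh38.p14 (chr11:102317234-102317533, plus strand, 250 bases before to 50 after the start of the gene, read 5′ to 3′ on the gene's strand) is shown because it belongs to the called member of the list with the smallest p whose window holds the kappa B letters. Capitals mark the match to GGGANTTCC, searched on both strands, which begins 199 bases before the start.
BIRC3: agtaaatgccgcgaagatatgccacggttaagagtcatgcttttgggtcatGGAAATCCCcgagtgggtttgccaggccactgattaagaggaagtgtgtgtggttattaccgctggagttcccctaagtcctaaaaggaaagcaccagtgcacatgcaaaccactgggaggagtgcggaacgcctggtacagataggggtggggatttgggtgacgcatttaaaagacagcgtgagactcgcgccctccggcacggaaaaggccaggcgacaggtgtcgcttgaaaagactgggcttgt
The letters were in 3 of 25 listed promoters (12%) and in 2.35% of the 11538 promoters of tested genes. A match is a description of letters and not a bound site.

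Most ATF4 targets rose. Of 37 tested members 27 were higher in number 2 and 1 lower, with a median log2 difference of 0.71. Among amino acid synthesis genes 10 of 11 rose, among amino acid transporters 7 of 8, among transcription factors and feedback genes 7 of 11, and among other targets 3 of 7. Over the fits that leave out a library and the oil term, 4 to 15 were higher.

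ATF4 itself was at 238 and 334 CPM in olive oil 1 and ozonated olive oil 1 and at 476 and 512 CPM in the libraries numbered 2, a log2 difference of 0.81 ± 0.081 (adjusted p = 1.94e-06). PHGDH and PSAT1, the enzymes that start serine synthesis, were at 126 and 136 CPM against 371 and 331 CPM and at 210 and 216 CPM against 548 and 469 CPM, 2.68-fold and 2.38-fold higher. MTHFD2, a mitochondrial folate enzyme, rose by 0.84 and PYCR1, an enzyme of proline synthesis, by 1.28 on the log2 scale. The transporter subunits SLC7A5 and SLC3A2, which together import large neutral amino acids, rose by 0.47 ± 0.051 and 0.71 ± 0.072. In each of these genes both libraries numbered 2 were above both numbered 1.

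CHAC1, which degrades glutathione, was at 7.19, 40.9, 10.1 and 19.7 CPM in olive oil 1, olive oil 2, ozonated olive oil 1 and ozonated olive oil 2, with a larger difference in the olive oil pair (2.50) than in the ozonated pair (0.95). SESN2 passed narrowly (0.42 ± 0.15, adjusted p = 0.0477), with 0.82 in the olive oil pair and 0.0065 in the ozonated pair. DDIT3, which encodes CHOP, rose by 0.46 ± 0.13, with a higher level in ozonated olive oil 1 (27.9 CPM) than in olive oil 2 (26.3 CPM), and the pseudokinase TRIB3 rose by 0.43 ± 0.090. The single fall was GDF15, a stress cytokine that is also in the p53 list, at 18.95 and 29.4 CPM in number 1 and 5.75 and 11.3 CPM in number 2. ATF3, ATF5, CEBPB and VEGFA were among the 9 that did not pass.

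ASNS, asparagine synthetase, was at 70.8 and 80.8 CPM in number 1 and at 259 and 251 CPM in number 2, 3.37-fold higher (log2 difference 1.75 ± 0.085, adjusted p = 3.47e-10), and no library of number 1 came near those of number 2. Its RefSeq promoter window (GRCh38.p14, chr7:97872359-97872658, minus strand) is shown because it had the smallest p in this list among members whose window holds the letters of the C/EBP-ATF element, TGATGNAA on either strand, in capitals. The match begins 68 bases before the start that the RefSeq window uses, which lies inside the span of the gene (97851677 to 97928441) and not at its outer end.
ASNS: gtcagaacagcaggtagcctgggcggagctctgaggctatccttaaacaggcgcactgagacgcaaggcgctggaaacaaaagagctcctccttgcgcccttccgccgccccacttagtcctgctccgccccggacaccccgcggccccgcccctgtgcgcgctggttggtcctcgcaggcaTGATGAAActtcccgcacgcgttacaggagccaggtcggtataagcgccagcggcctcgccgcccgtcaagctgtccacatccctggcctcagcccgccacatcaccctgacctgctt
These letters were in 5 of 30 listed promoters (16.7%) and in 1.84% of all 11538.

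The cytosolic aminoacyl tRNA synthetases, many of which are ATF4 targets in mammalian cells, were a list outside those 14, and members named from such lists were picked with their values known. Of 19 tested, 11 rose and 0 fell (median 0.29). GARS1 was at 250 and 273 CPM in number 1 and 455 and 451 CPM in number 2, and YARS1 at 224 and 229 CPM against 386 and 399 CPM. Each rose by 0.79 on the log2 scale. The count of synthetases that rose was 0 to 7 with a library left out.

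**Figure D3:**
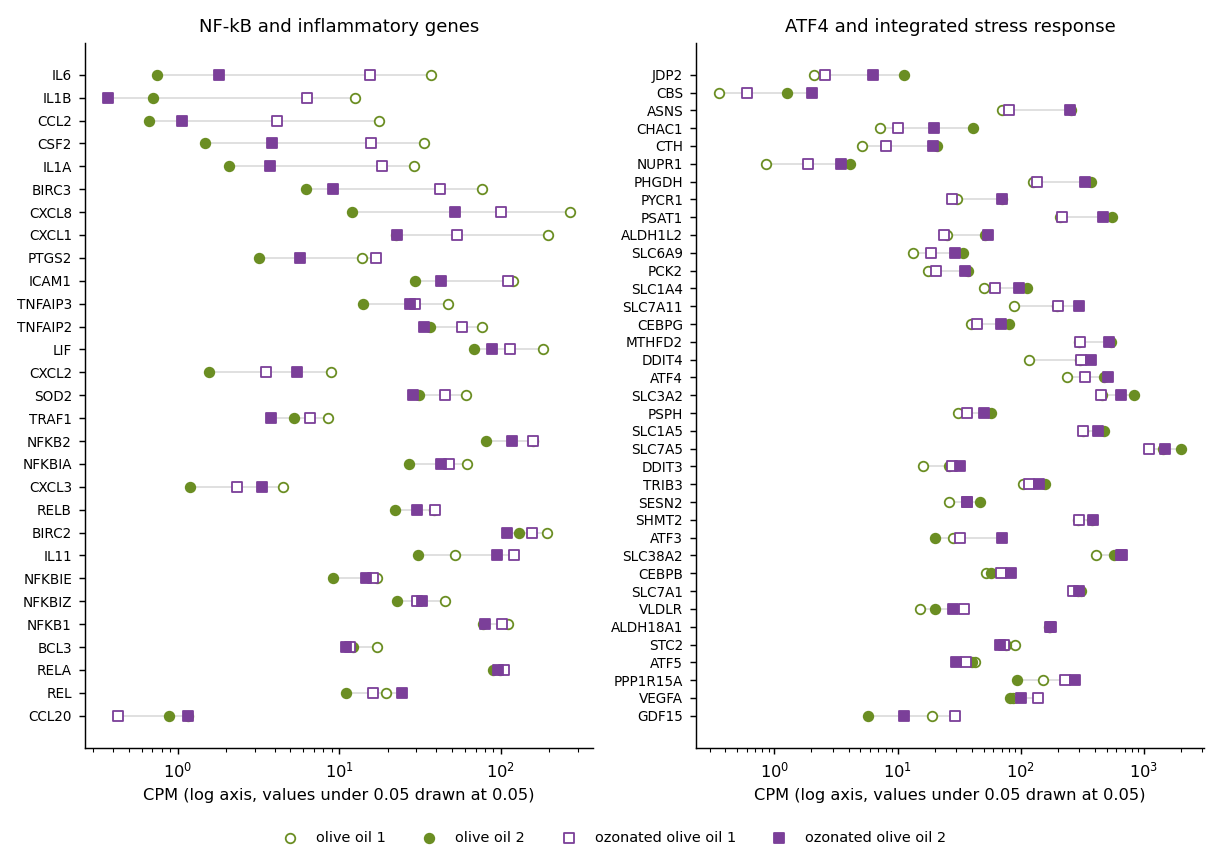
Level of every tested member of the NF-kB and inflammatory list (left) and of the ATF4 and integrated stress response list (right) in each library, in CPM on a log axis, ordered by fitted difference. Open symbols are number 1, filled symbols number 2. At the top of the left panel (IL6, IL1B) filled symbols lie to the left, and at the top of the right panel (JDP2, CBS, ASNS) they lie to the right.

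Most p53 targets fell. Of 25 tested members 20 were lower in number 2 and 0 higher (median -0.68). The cyclin-dependent kinase inhibitor CDKN1A was at 374 and 438 CPM in number 1 and 98.0 and 153 CPM in number 2, a 3.30-fold lower level (log2 difference -1.72 ± 0.090, adjusted p = 8.61e-10). MDM2, the ubiquitin ligase of p53, was at 194 and 188 CPM against 128 and 139 CPM. The death receptor FAS was at 44.4 and 45.2 CPM against 15.8 and 17.3 CPM, and BAX, a pore-forming protein of apoptosis, at 165 and 161 CPM against 89.5 and 80.8 CPM. PHLDA3, an inhibitor of AKT, fell by 1.10 on the log2 scale. For these 5 genes both libraries numbered 2 were below both numbered 1, and the share of all tested genes that separate in this way was not counted. CCNG1, PPM1D, PLK3, AEN and POLK did not pass. With 1 library left out and no oil term, 3 to 8 members were lower.

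Of 41 tested targets of HIF 25 fell and 2 rose (median -0.56), and of the 13 members of mitophagy, growth arrest and matrix 10 fell. CA9, a carbonic anhydrase at the cell surface, was at 35.1 and 89.0 CPM in olive oil 1 and ozonated olive oil 1 and at 1.04 and 8.23 CPM in olive oil 2 and ozonated olive oil 2, a log2 difference of -3.96 ± 0.22 (adjusted p = 2.00e-09). NDRG1, a growth arrest gene, was at 212 and 669 CPM in number 1 and 81.8 and 212 CPM in number 2, so that the level of ozonated olive oil 2 equalled that of olive oil 1. The glycolytic regulator PFKFB4 was 2.58-fold lower and the secreted hormone STC1 4.43-fold lower. LDHA and PGK1, enzymes of late glycolysis, fell by 0.62 each. The 2 that rose were the stress gene DDIT4, at 116, 304, 312 and 370 CPM in olive oil 1, olive oil 2, ozonated olive oil 1 and ozonated olive oil 2, and PFKFB3. VEGFA (-0.27, adjusted p = 0.0505) and SLC2A3 (0.24, adjusted p = 0.147) did not pass, and SLC2A3 had opposite signs in the pairs. Without the oil term 6 members were lower, and with 1 library left out as well, 1 to 7. Of 17 tested glycolytic enzymes 11 fell and 0 rose (median -0.31), GAPDH not among them (0.057 ± 0.039, adjusted p = 0.323), and 0 to 1 enzymes were lower with a library left out.

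The promoter windows of CA9 (GRCh38.p14, chr9:35673678-35673977, plus strand) and BNIP3 (chr10:131981874-131982173, minus strand) are shown because they had the smallest p in the HIF list among the printable windows that hold ACGTGC, the core of the hypoxia response element, on either strand. BNIP3, a mitophagy receptor, was at 194 and 357 CPM in number 1 and 79.3 and 172 CPM in number 2. Capitals mark the matches, which begin 19 bases before the start in CA9 and 135 and 133 bases before it in BNIP3. The BNIP3 matches lie on opposite strands and share the letters ACGT, and the stretch they cover together holds the E-box letters CACGTG.
CA9: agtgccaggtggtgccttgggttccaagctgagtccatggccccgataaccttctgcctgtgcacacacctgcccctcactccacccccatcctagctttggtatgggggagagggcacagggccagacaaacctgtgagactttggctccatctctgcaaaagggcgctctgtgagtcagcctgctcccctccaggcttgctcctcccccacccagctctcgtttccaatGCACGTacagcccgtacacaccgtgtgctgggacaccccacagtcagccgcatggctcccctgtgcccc
BNIP3: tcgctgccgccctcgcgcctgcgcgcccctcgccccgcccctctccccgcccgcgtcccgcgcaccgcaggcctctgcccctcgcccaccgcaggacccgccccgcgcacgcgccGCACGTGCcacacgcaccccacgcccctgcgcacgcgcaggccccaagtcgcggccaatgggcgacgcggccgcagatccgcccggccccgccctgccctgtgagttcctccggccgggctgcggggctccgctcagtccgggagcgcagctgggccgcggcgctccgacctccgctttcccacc
The core was in 15 of 33 listed promoters (45.5%) and in 8.68% of all 11538.

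Interferon response genes, which detect and restrict viruses, were lower in part. Of 31 tested 17 fell and 1 rose (median -0.46), with 5 of 8 sensors and factors and 12 of 23 effectors lower. The transcription factor IRF1 was at 34.7 and 26.3 CPM in number 1 and 18.8 and 14.2 CPM in number 2, a log2 difference of -0.89 ± 0.12 (adjusted p = 6.62e-05). RIGI, a sensor of viral RNA, was at 9.95 and 8.30 CPM against 4.01 and 2.68 CPM. IFIT1 was at 2.38 to 2.82 CPM in the 4 libraries and MX2 at 74.8 to 85.1 CPM, and neither passed (adjusted p = 0.740 and 0.520). In fits of 3 libraries without the oil term, 0 to 3 were lower. PARP14, an ADP-ribosyltransferase, was at 56.5 and 61.5 CPM against 36.8 and 38.3 CPM and had the smallest p among members whose window holds TTTCNNTTT, the core of the interferon-stimulated response element. Its window (GRCh38.p14, chr3:122680589-122680888, plus strand) has 2 matches, which begin 65 and 28 bases before the start.
PARP14: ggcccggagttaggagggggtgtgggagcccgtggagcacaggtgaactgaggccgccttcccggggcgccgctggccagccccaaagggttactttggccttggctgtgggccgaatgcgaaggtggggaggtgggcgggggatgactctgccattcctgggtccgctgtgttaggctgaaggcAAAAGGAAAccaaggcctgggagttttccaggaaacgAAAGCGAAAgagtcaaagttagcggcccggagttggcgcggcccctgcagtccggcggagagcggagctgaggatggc
The core was in 18 of 25 listed promoters (72%) and in 7.22% of all 11538, and 8 of the 14 called members with a window held it. Of 8 tested genes of antigen presentation 6 were lower, among them the peptide-trimming ERAP1 and the regulator NLRC5. DESeq2 gave 1 lower, the GC and length offsets 3, the fit without the oil term 1, and leaving out a library as well 0 to 1. Without the MHC stretch 5 were lower, and B2M did not pass (0.14 ± 0.17, adjusted p = 0.610).

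In the matrix and protease list 22 of 33 fell and 4 rose (median -0.37). FN1, fibronectin, was at 391 and 527 CPM in number 1 and 141 and 180 CPM in number 2, a log2 difference of -1.51 ± 0.071 (adjusted p = 2.34e-10). TGFBI, a matrix protein induced by TGF-beta, was at 650 and 682 CPM against 160 and 163 CPM, and the gelatinase MMP2 at 350 and 358 CPM against 132 and 132 CPM. COL6A3, a chain of collagen VI, was 3.65-fold lower. TIMP3, an inhibitor of matrix proteases, rose from 249 and 201 CPM in number 1 to 937 and 763 CPM in number 2 (1.92 ± 0.064, adjusted p = 2.71e-12), and SERPINE2, a secreted serine protease inhibitor, by 0.53 ± 0.045. THBS1, thrombospondin-1, was at 5183, 3191, 2149 and 1741 CPM in olive oil 1, olive oil 2, ozonated olive oil 1 and ozonated olive oil 2, lower in number 2 within each oil, while olive oil 2 stayed above ozonated olive oil 1.

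Of 17 tested adhesion genes 10 fell and 0 rose (median -0.44). The integrin subunits ITGA2 and ITGA5, which pair with ITGB1, fell by 0.92 and 0.86, ITGB8 by 0.77 and the hyaluronan receptor CD44 by 0.55 on the log2 scale, while ITGB1 did not pass (adjusted p = 0.593). Of 18 ephrins, semaphorins and their receptors 9 fell and 0 rose (median -0.39). The semaphorin co-receptors NRP1 and NRP2 were at 179 and 172 CPM against 84.9 and 73.1 CPM and at 154 and 164 CPM against 61.1 and 62.6 CPM. Of 15 Notch and Wnt genes 8 fell and 1 rose (median -0.51). The Notch ligand JAG1 fell by 1.43 ± 0.14 and the receptor NOTCH1 by 0.51 ± 0.090. Of the 6 tested Wnt genes 3 fell, and 1, the transcription factor LEF1, rose by 0.57 ± 0.14. DESeq2 gave 2 Notch or Wnt genes lower. Over the fits that leave out a library and the oil term, 9 to 10 matrix genes, 1 to 6 adhesion genes, 2 to 5 ephrin or semaphorin genes and 0 to 2 Notch or Wnt genes were lower.

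In the list of the dedifferentiated melanoma state 12 of 22 fell and 2 rose (median -0.51). WNT5A, a ligand of invasive melanoma cells, was at 141 and 118 CPM in number 1 and 49.5 and 43.4 CPM in number 2 (-1.48 ± 0.086, adjusted p = 2.89e-09). The nerve growth factor receptor NGFR fell by 0.90 ± 0.086. From 4 to 7 members of the list were lower with a library left out. AXL was at 504, 459, 373 and 386 CPM in olive oil 1, olive oil 2, ozonated olive oil 1 and ozonated olive oil 2 and VIM, vimentin, at 2293 to 2736 CPM, and neither passed (adjusted p = 0.688 and 0.519). The stem cell filament NES rose, as did JUN, whose rise was in the ozonated pair. IL6, CXCL8 and TGFBI are in this list and also in others above. Of 22 genes of the pigment lineage 7 rose and 4 fell (median 0.18), and 0 to 3 rose and 0 fell with a library left out. SOX10 passed narrowly (0.21 ± 0.072, adjusted p = 0.0471), MITF did not (-0.26, adjusted p = 0.176), and S100B and S100A1, from the melanocytic markers above, rose by 1.31 and 1.22.

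**Figure D4:**
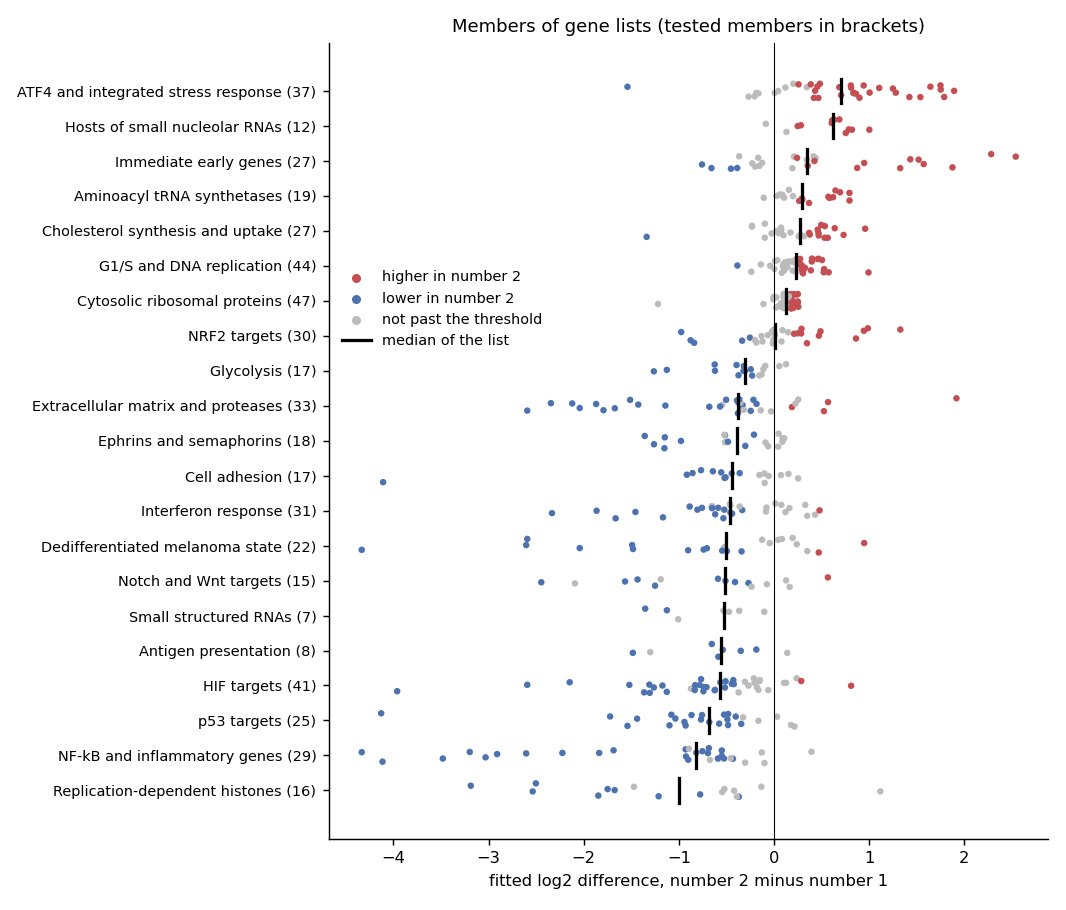
Fitted log2 difference (x axis, number 2 minus number 1) of each tested member of the gene lists named on the y axis, with the number tested in brackets. Points are genes coloured by call, and the vertical bar is the list's median. The NF-kB, p53 and HIF lists lie mostly left of 0 and the ATF4 list mostly right, with medians of -0.82, -0.68, -0.56 and 0.71, and the ribosomal proteins lie close to 0 (0.13).

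Lists of growth genes had small medians, and most of their members did not pass in the reported fit. In the list of the G1/S transition and DNA replication 20 of 44 rose and 1 fell (median 0.23), and in that of G2/M and mitosis 11 of 41 rose and 0 fell (median 0.16). E2F8, a transcription factor of S phase, was at 10.1 and 6.85 CPM in number 1 and 17.8 and 15.7 CPM in number 2. MCM6, a subunit of the replicative helicase, was at 114 and 96.4 CPM against 149 and 141 CPM. The proliferation marker MKI67 was at 499.7, 501, 430.1 and 486 CPM in olive oil 1, olive oil 2, ozonated olive oil 1 and ozonated olive oil 2 and did not pass (adjusted p = 0.365). Cyclin D1, CCND1, fell by 0.51 ± 0.061 (adjusted p = 1.22e-05). Of 47 cytosolic ribosomal proteins 17 rose and 0 fell, with a median of 0.13. DESeq2 called 5 of the G2/M genes and 3 of the ribosomal proteins. With the GC and length offsets 27 G1/S genes, 18 G2/M genes and 37 ribosomal proteins were higher. Those offsets moved the median of all genes to 0.056. Leaving out a library and the oil term left 0 G1/S genes and 0 ribosomal proteins higher, and 0 to 1 of the G2/M genes.

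Of 16 tested members of the list of replication-dependent histones 9 were lower in number 2 and 0 higher (median -0.99), and most of the others had few counts. H2BC12, a histone H2B, was at 34.1 and 35.4 CPM in number 1 and 13.7 and 16.4 CPM in number 2, a log2 difference of -1.21 ± 0.13 (adjusted p = 2.65e-06). Most transcripts of this list lack a poly(A) tail. Of 7 small structured RNAs, which lack it too, 2 were lower (RPPH1 and RN7SK) and RN7SL1 and SNORD3A had opposite signs in the pairs, and of 13 mitochondrial messenger RNAs 7 were lower and 1 higher (median -0.17). The part of library preparation in these lists was not tested. With 1 library left out and no oil term, 0 to 3 histones, 0 structured RNAs and 0 mitochondrial messenger RNAs were lower. DESeq2 gave 0 structured RNAs and 3 mitochondrial messenger RNAs lower.

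Hosts of small nucleolar RNAs, spliced RNAs whose introns carry guide RNAs of ribosome assembly and whose exons are degraded during translation, rose in 10 of 12 cases and fell in 0 (median 0.62). GAS5 was at 132, 210, 142 and 359 CPM in olive oil 1, olive oil 2, ozonated olive oil 1 and ozonated olive oil 2, a log2 difference of 1.003 ± 0.11 (adjusted p = 7.15e-06). SNHG5 was at 83.4 and 92.6 CPM in number 1 and 143 and 154 CPM in number 2, and ZFAS1 at 85.6 and 102 CPM against 118 and 229 CPM. The median was 0.33 in the olive oil pair and 0.79 in the ozonated pair. In fits of 3 libraries without the oil term, 0 to 8 were higher.

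Immediate early genes encode mainly transcription factors that answer growth factors and stress within minutes. Of 27 tested 12 rose and 4 fell (median 0.35, 0.0001 in the olive oil pair and 0.56 in the ozonated pair). FOS was at 3.68, 4.94, 13.2 and 125 CPM in olive oil 1, olive oil 2, ozonated olive oil 1 and ozonated olive oil 2, a fitted difference of 2.28 ± 0.38 (adjusted p = 3.32e-04). EGR1 was at 23.3, 33.6, 58.2 and 475 CPM, and JUN at 96.1, 81.1, 129 and 551 CPM. In these 3 genes ozonated olive oil 2 stood alone above the other libraries, so the fitted value does not describe a difference shared by both oils. The orphan receptor NR4A2 differed in both pairs, at 2.34 CPM in olive oil 1 and 11.4 CPM in olive oil 2, and at 8.34 CPM in ozonated olive oil 1 and 54.7 CPM in ozonated olive oil 2. A difference of the number effect between the oils leaves no residual degree of freedom and was not tested. Without ozonated olive oil 2 and the oil term the values of FOS and EGR1 were negative (-0.77 and -0.27). That fit sets olive oil 2 against olive oil 1 and ozonated olive oil 1, so its values also hold the oil effect. In the olive oil pair both genes were higher in number 2 (0.41 and 0.53). Over the libraries left out, the median of the immediate early list ran from -0.068 to 0.50.

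**Figure D5:**
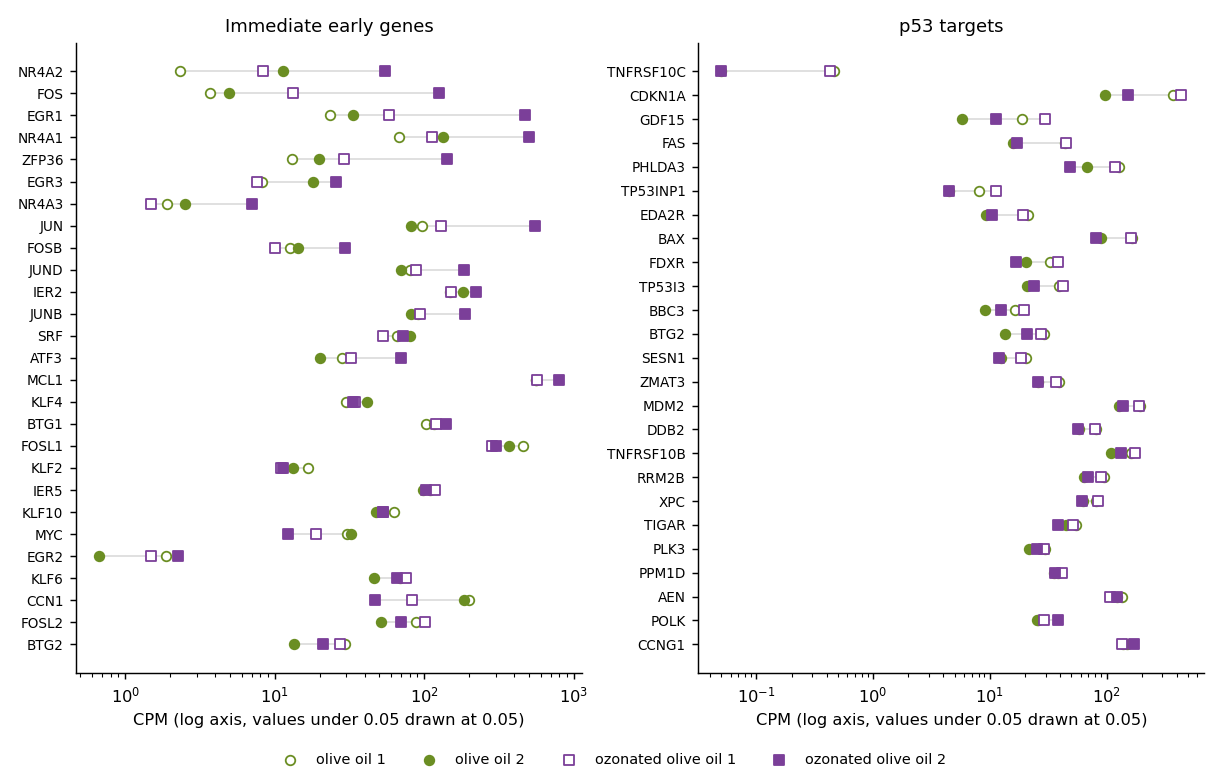
Level of every tested member of the immediate early list (left) and the p53 list (right) in each library, in CPM on a log axis, ordered by fitted difference. Open symbols are number 1, filled symbols number 2. For FOS, EGR1 and JUN the filled square (ozonated olive oil 2) lies apart to the right, and for most p53 targets both filled symbols lie left of both open ones; TNFRSF10C is drawn at the 0.05 limit in number 2.

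Lipid and antioxidant genes were mixed. Of 27 tested genes of cholesterol synthesis and uptake 12 rose and 1 fell (median 0.28). The sterol sensor INSIG1 was at 32.3, 36.5, 65.4 and 206 CPM in olive oil 1, olive oil 2, ozonated olive oil 1 and ozonated olive oil 2, with 0.18 in the olive oil pair and 1.66 in the ozonated pair. HMGCS1, an early enzyme of the pathway, rose by 0.38 ± 0.12, and ABCA1, which exports cholesterol, was the 1 that fell. With a library left out 0 to 4 of these genes rose, and 0 to 1 of the NRF2 targets. Of 30 NRF2 targets 11 rose and 5 fell (median 0.0082). HMOX1, heme oxygenase-1, was at 38.8, 79.4, 347 and 1046 CPM in olive oil 1, olive oil 2, ozonated olive oil 1 and ozonated olive oil 2, so it was higher in number 2 within each oil (1.33 ± 0.099, adjusted p = 4.96e-08) while the numbers overlapped across oils. NQO1, a quinone reductase, was at 550 and 726 CPM in number 1 and 1134 and 1307 CPM in number 2, and the cystine transporter SLC7A11 was 1.82-fold higher. Of 15 circadian clock genes 7 rose and 2 fell, with medians of 0.15 in the olive oil pair and 0.55 in the ozonated pair. With a library left out 0 to 4 rose and 0 fell.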

How the data were processed

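The authors deposited 1 table of raw counts, whole numbers per gene in 4 columns, 1 per library, and every column was matched to a sample by name (0 left unmatched). The submitters' processing notes list edgeR, bedtools 2.27.1, SAMtools 1.9, HISAT2 2.1.0, StringTie 1.3.4d, FastQC 0.11.7 and bcl2fastq, without their roles, and name hg38. How reads were counted, with which strand setting and gene models, is not given in the sources used here. A gene may therefore share reads with its antisense partner or a near-identical copy.

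Counts were filtered (filterByExpr by number), scaled by TMM (factors 0.972 to 1.02) and tested two-sided with edgeR 4.0.16 in R 4.3.3, with oil and number as terms, which leaves 1 residual degree of freedom shared across genes. Each SE is the fitted log2 difference divided by the square root of F. CPM use the TMM-scaled sizes. Pair differences are log2 CPM with a prior count of 2 and carry no test. With 2 libraries against 2, an exact two-sided permutation test of 1 gene that ignores the oil cannot go below p = 0.333. Counting error limits single libraries: the limit that 0 counts allow is 3 counts, or 0.108 to 0.135 CPM by library, which covers counting error only.

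The members and lists were chosen with earlier results of these data known. The lists hold 1127 entries, of which 1114 were found under their symbol and 13 through a synonym in RefSeq. Named are the 15 called genes each way with the largest difference among those averaging at least 2 log2 CPM with the same sign in both pairs, the 5 members of smallest p, or fewer, and the 2 of highest level in each of the 14 lists with the largest absolute median, and 34 genes whatever their values. Other members named were picked with values known. Some genes that the rule names are not reported here. Coordinates and promoters are RefSeq's on GRCh38.p14, the same assembly as hg38. Alternatives were RLE and upper quartile scaling, other filters, DESeq2 1.42.0, limma-voom 3.58.1, no oil term, a minimum fold, GC and length offsets (mgcv 1.9.3; GENCODE transcripts, 97.6% of genes), and each library left out. The test was run on simulated data first.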

Additional observations from a re-analysis of the deposited data

Results flagged for a closer look

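Of 141 named genes, 10 had opposite signs in the 2 oil pairs, so that number 2 was higher than number 1 in 1 oil and lower in the other. With 1 library of each number per oil the difference was not tested, and none of the 10 passed the test of the number itself. The difference between the pairs (ozonated pair minus olive oil pair, log2 CPM) was 1.79 for SNORD3A, a small nucleolar RNA with under 2 CPM in each library, 1.20 for B2M, the light chain of MHC class I, and 1.10 for RN7SL1, the RNA of the signal recognition particle. It was -1.05 for TXNIP, -0.77 for the matrix protein gene CCN2 and -0.71 for MYC. It was 0.61 for the glucose transporter SLC2A3, 0.54 for MITF and 0.18 for AXL, and -0.11 for ACTB. B2M was at 86.3, 62.5, 88.3 and 147 CPM in olive oil 1, olive oil 2, ozonated olive oil 1 and ozonated olive oil 2, and TXNIP at 14.03, 28.1, 24.1 and 23.4 CPM.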

How the results depend on the processing

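The counts of genes higher and lower in number 2 were within 1.5 times of those reported with RLE and upper quartile scaling, with no filter, with at least 5 CPM in 2 libraries, with limma-voom, with the GC and length offsets and without the 3 stretches of few counts. They moved to 698 higher and 1000 lower with DESeq2, 332 and 616 without the oil term and 227 and 446 with a minimum fold of 1.5. With 1 library left out and no oil term they ranged from 44 to 309 higher and 125 to 393 lower. That setting has 3 libraries, and the lone library of a number is assumed to vary like the others. Every gene called by DESeq2, without the oil term or with the minimum fold was also called in the same direction in the reported fit. GC and length offsets moved the share of higher calls from 45.6% to 58.4% (2223 higher and 1582 lower) and the median of all genes to 0.056. The Spearman correlation over genes of the pair differences with GC was -0.045 in the olive oil pair and -0.115 in the ozonated pair. No paired analysis was possible because the replicate number is itself what is compared, and the oil term already matches the libraries.

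Reversals were of values near 0 or with a large oil effect. CCN2 was 0.037 without the oil term, and AXL and ACTB were 0.012 and 0.015 with the GC and length offsets. With 1 library left out and no oil term, values ran from -0.24 to 0.13 for ACTB, -0.26 to 0.18 for AXL, -0.48 to 0.75 for B2M, -1.29 to 0.78 for CCN2, -1.28 to 0.31 for DKK1, -0.27 to 3.55 for EGR1, -0.44 to 0.040 for EPHA2, -0.77 to 4.13 for FOS and -0.11 to 0.24 for GAPDH. They ran from -1.28 to 3.85 for HMOX1, -0.42 to 2.08 for INSIG1, -0.54 to 0.035 for MITF, -0.021 to 0.20 for MKI67, -0.996 to 0.39 for MYC, -0.039 to 0.64 for SCD, -1.05 to 1.36 for SLC2A3, -1.07 to 0.20 for THBS1, -0.60 to 0.081 for VEGFA and -0.064 to 0.16 for VIM. In this setting the oils are not balanced, by construction.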

Other observations

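On chromosome 13, 65 of 272 tested genes were higher and 23 lower, with a median log2 difference of 0.10 in the olive oil pair and 0.13 in the ozonated pair. On chromosome 18, 14 of 224 were higher and 49 lower, with medians of -0.12 and -0.078. Chromosomes 2 and 3 had 71 higher and 159 lower of 983 and 54 higher and 131 lower of 826, with medians between -0.060 and -0.014 in the pairs. Over all tested genes 11.1% were higher and 13.3% lower, and the chromosomes named here were picked with their values known. Whether calls are spread evenly over chromosomes was not tested.

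Of 17 tested targets of TGF-beta 7 fell and 2 rose, with PMEPA1, a feedback inhibitor of SMAD signalling, at 234 and 184 CPM in number 1 and 57.3 and 31.9 CPM in number 2, and LTBP2 at 35.5 and 29.2 CPM against 8.35 and 6.06 CPM. Of 36 genes of autophagy and the lysosome 13 fell and 1 rose (median -0.20), among them the proteases CTSB and CTSA, which fell by 0.52 and 0.53. Of 24 splicing factors 12 rose and 2 fell, with HNRNPA1 at 1089 and 1182 CPM in number 1 and 1475 and 1685 CPM in number 2. With a library and the oil term left out, 2 to 6 TGF-beta targets and 0 to 1 lysosomal genes were lower and 0 splicing factors were higher. Nuclear-encoded genes of the respiratory chain showed 1 of 41 higher and 1 lower, and proteasome genes 1 of 30 higher and 3 lower, under the background of 11.1% and 13.3%. The small nucleolar RNAs themselves had a median of 0.14 in the olive oil pair and 0.80 in the ozonated pair over 121 tested, of which 13 were higher and 0 lower.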
